A study of Mus musculus with 16 samples.

Results

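Sox2 is a single-exon gene that encodes an HMG-box transcription factor of the pluripotent epiblast and of neural progenitors. Sox2 and Oct4 bind side by side on composite SoxOct DNA elements, and in pluripotent cells both proteins occupy enhancers of the Sox2 gene itself. Known enhancers of the gene include SRR2, a short element just 3′ of the exon that carries a SoxOct site, and a distal control region far downstream. The long noncoding gene Sox2ot spans the coding gene on the same strand.

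Here the binding of Oct4, its mutants, Oct6 M151S and Sox2 was described at the Sox2 locus during reprogramming. The members were all ChIP-seq summits within 150 kb of the Sox2 start, chromosome 3 position 34650405 of mm10 (GRCm38), plus strand, and they numbered 36 of the 227116 summits in the 13 summit lists. A summit is the base of highest enrichment within a peak. Summits of any library within 100 bp of the next were merged, which gave 11 elements. Of these, 2 lay in the Sox2 exon and held 13 summits, and 9 lay outside it and held 23 summits. Outside the exon, 12 summits came from the Sox2 antibody and 11 from the Oct4 antibody.

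All cells were OG2 MEFs, mouse fibroblasts with a GFP reporter driven by the Oct4 promoter, and all received pMX retroviruses for Sox2 and Klf4 (SK) with a single POU factor before culture in chemically defined iCD1 medium. The retroviruses deliver cDNAs, so every group carried extra copies of the Sox2 coding sequence beside the gene. The POU factor was Oct4, Oct6, Oct4defSox2 (an Oct4 mutated at its Sox2 interface), Oct4 S151M or Oct6 M151S (each with the residue of the other factor at a position that governs homodimers). The Oct4 antibody was used for Oct4 in Oct4-SK at days 1, 5 and 7, for Oct4defSox2 in Oct4defSox2-SK at days 1 and 5 and for Oct4 S151M at day 1. A Sox2 antibody was used at days 1 and 5 in cells given Oct4, Oct6 or Oct4defSox2 with SK. The methods name one from Santa Cruz Biotechnology or one from Cell Signaling Technology, and the Sox2 libraries are not told apart by it here. The Oct6 antibody was used for Oct6 M151S, which is day 1 by its title and day 2 by another label and was taken as day 1. Each of the 13 groups had 1 library, so there was no replicate check and no test across libraries. Days count from the change into iCD1. Wild-type Oct6 ChIP and the 3 inputs were not analysed here.

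The score of a summit is the −log10 p-value that MACS2 gave it. Scores rise with read depth, which the lists do not hold, so the score of each member is given with its rank or top percent within its own library. Library yield ran from 1038 summits (Oct4defSox2 at day 5) to 101170 (Oct4 S151M). The lowest score was 2.3 in Oct6 M151S against 4.00 to 4.12 in the other lists, so its list reaches below the score of 4 that corresponds to the p-value threshold of the methods, and its median score was 3.74. As the cells were profiled in bulk, fewer cells with a bound site and weaker binding per cell cannot be told apart. In Oct6-SK cells, which received no Oct4 by the labels, both Sox2 libraries had a summit in the coding sequence of the Oct4 gene, and in Oct4-SK cells both had one in that of the Oct6 gene. Their values stand with the exon summits.

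Across the genome the summits merged into 172918 sites, and the share of these sites bound in a library is the background for every count of elements. Oct4 had summits at 4.72% of sites at day 1, 2.8% at day 5 and 2.1% at day 7, Oct4defSox2 at 17.9% at day 1 and 0.6% at day 5, and Oct4 S151M at 58.5%. The share bound by Oct6 M151S was 13.2%. The mutants Oct4defSox2 and Oct4 S151M thus had summits at more sites at day 1 than Oct4 did, and the list of Oct6 M151S, with its lower scores, was not set against the rest. Sox2 covered 8.79% of sites at day 1 and 3.36% at day 5 with Oct4, 1.87% then 1.54% with Oct6, and 3.34% then 12.5% with Oct4defSox2. These shares are to be read beside the counts at the locus. Of the 11 elements, Oct4 was at 2, 1 and 2 on days 1, 5 and 7, and of the 9 outside the exon at 0, 1 and 2. Oct4defSox2 was at 4 elements on day 1 and at 0 on day 5, in the list of only 1038 summits. Oct4 S151M, with the longest list, was at 5 elements and Oct6 M151S at 1. No library was at more than 5 of the elements. Sox2 was at 3 elements on day 1 and 5 on day 5 with Oct4, at 2 and 3 with Oct6, and at 3 and 4 with Oct4defSox2. Outside the exon these counts were 2 and 3 with Oct4, 1 and 2 with Oct6, and 2 on both days with Oct4defSox2.

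**Figure D1:**
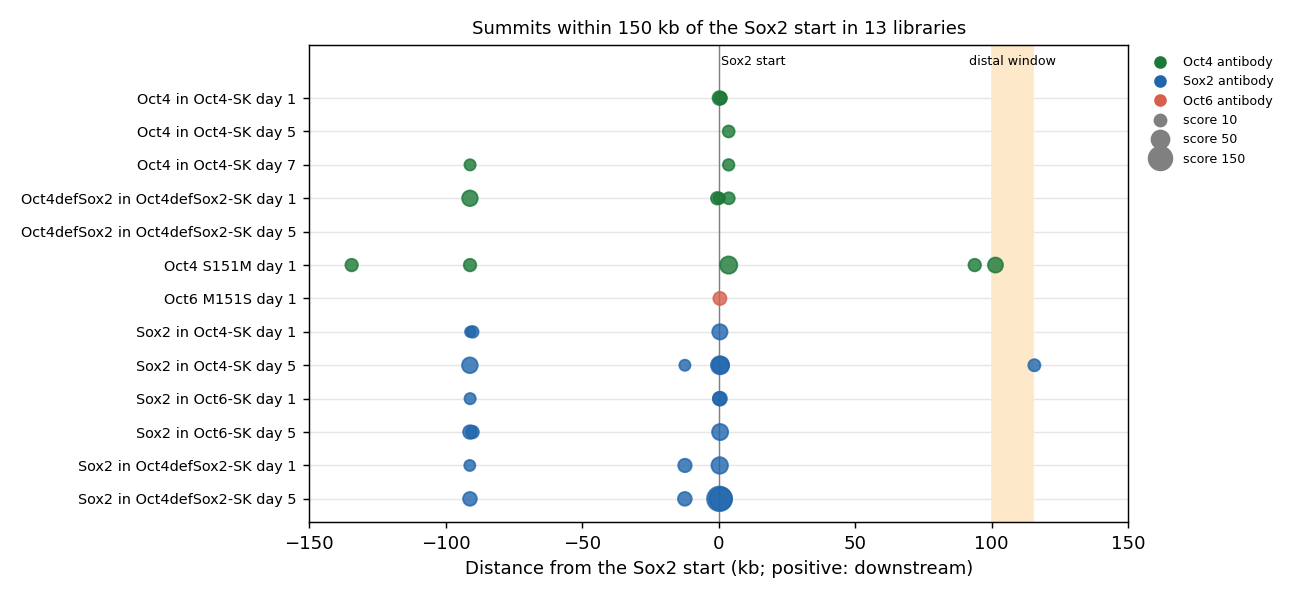
Position of the 36 summits. The x axis is the distance from the Sox2 start in kb, rows are the 13 libraries, colour is the antibody and point area grows with the score. Summits gathered at the gene and near −91 kb, the shaded distal window held a single summit (Oct4 S151M), and Oct4defSox2 at day 5 had none.

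The sequences of 6 elements outside the exon are shown because the results turn on them: the element bound in most libraries (−91.1 kb), an element bound by Sox2 alone (−12.4 kb), the promoter element (−0.5 kb), the 3′ element (+3.7 kb), and both elements in or next to the distal window. Each run is the plus strand of GRCm38.p6, 201 bases around the centre of the element, read from the RefSeq genome. Capitals mark matches to SoxOct (up to 2 mismatches), MORE or MORE+1 (up to 1), the octamer ATGCAAAT (0), or a Sox core, which is CATTGT or CTTTGT on either strand. The Sox core may lie inside a SoxOct match. It was added after the summits had been seen.
−91.1 kb, chr3:34559225-34559425: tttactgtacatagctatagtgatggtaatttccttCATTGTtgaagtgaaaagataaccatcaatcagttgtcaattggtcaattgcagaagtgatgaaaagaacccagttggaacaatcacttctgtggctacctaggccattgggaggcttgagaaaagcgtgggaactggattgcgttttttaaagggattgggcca
−12.4 kb, chr3:34637912-34638112: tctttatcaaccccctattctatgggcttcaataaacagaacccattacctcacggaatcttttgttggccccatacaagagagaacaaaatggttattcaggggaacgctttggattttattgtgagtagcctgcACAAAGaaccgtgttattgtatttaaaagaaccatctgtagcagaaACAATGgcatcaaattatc
−0.5 kb, chr3:34649758-34649958: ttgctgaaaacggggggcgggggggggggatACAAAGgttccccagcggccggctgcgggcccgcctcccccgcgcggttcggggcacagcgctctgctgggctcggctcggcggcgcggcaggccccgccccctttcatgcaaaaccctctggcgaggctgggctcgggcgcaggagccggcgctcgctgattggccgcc
+3.7 kb, chr3:34653966-34654166: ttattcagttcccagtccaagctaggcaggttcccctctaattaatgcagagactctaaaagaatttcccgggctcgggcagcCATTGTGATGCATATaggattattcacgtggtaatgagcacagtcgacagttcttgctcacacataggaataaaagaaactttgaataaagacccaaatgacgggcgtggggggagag
+101.4 kb, chr3:34751669-34751869: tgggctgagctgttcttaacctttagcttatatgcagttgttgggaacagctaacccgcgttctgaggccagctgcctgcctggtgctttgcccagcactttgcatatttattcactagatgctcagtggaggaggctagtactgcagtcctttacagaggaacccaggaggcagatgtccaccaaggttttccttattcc
+115.6 kb, chr3:34765912-34766112: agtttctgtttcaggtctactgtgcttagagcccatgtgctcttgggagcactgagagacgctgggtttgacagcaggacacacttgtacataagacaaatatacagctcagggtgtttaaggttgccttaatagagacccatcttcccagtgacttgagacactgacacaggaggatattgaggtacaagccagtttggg

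The 3′ element at +3.7 kb was bound with the Oct4 antibody alone, by Oct4 late and by both Oct4 mutants early. It lies in an intron of Sox2ot, in the position of SRR2. The score was 9.8 for Oct4 at day 5 (rank 2286 of 4854 summits) and 8.66 at day 7 (rank 2077 of 3638). Oct4defSox2 at day 1 scored 9.86 (rank 18414 of 31070). By rank these 3 summits lay in the top 47.1%, 57.1% and 59.3% of their libraries. Oct4 S151M scored 42.8 (rank 24901 of 101170), with a fold enrichment of 11.6 over the local background. No summit was listed there for Oct4 at day 1, for Oct4defSox2 at day 5, for Oct6 M151S or in any of the 6 Sox2 libraries. Oct4 was thus listed at this element on both later days and not on day 1, with ranks in the middle of its lists.

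This element held the 1 SoxOct match among the 9 elements outside the exon, CATTGTGATGCATAT, at chr3:34654049-34654063 on the plus strand, with 2 mismatches to the consensus. SoxOct matches lay at 1.92% of all 172804 sites scanned. The summits of Oct4 at days 5 and 7 and of Oct4 S151M lay within 6 bp of each other, 1 to 6 bp before the first base of the match. The Oct4defSox2 summit lay on the other side, 26 bp after its last base and 41 bp from the Oct4 summit of day 5. Across the genome, 936 sites had Oct4 at days 5 and 7, Oct4defSox2 at day 1 and Oct4 S151M. Of those, 58% had no Sox2 library, 21.9% had no Oct4 summit at day 1, and 26.1% held a SoxOct match. The 3′ element was thus 1 of 543 such sites without a Sox2 library.

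**Figure D2:**
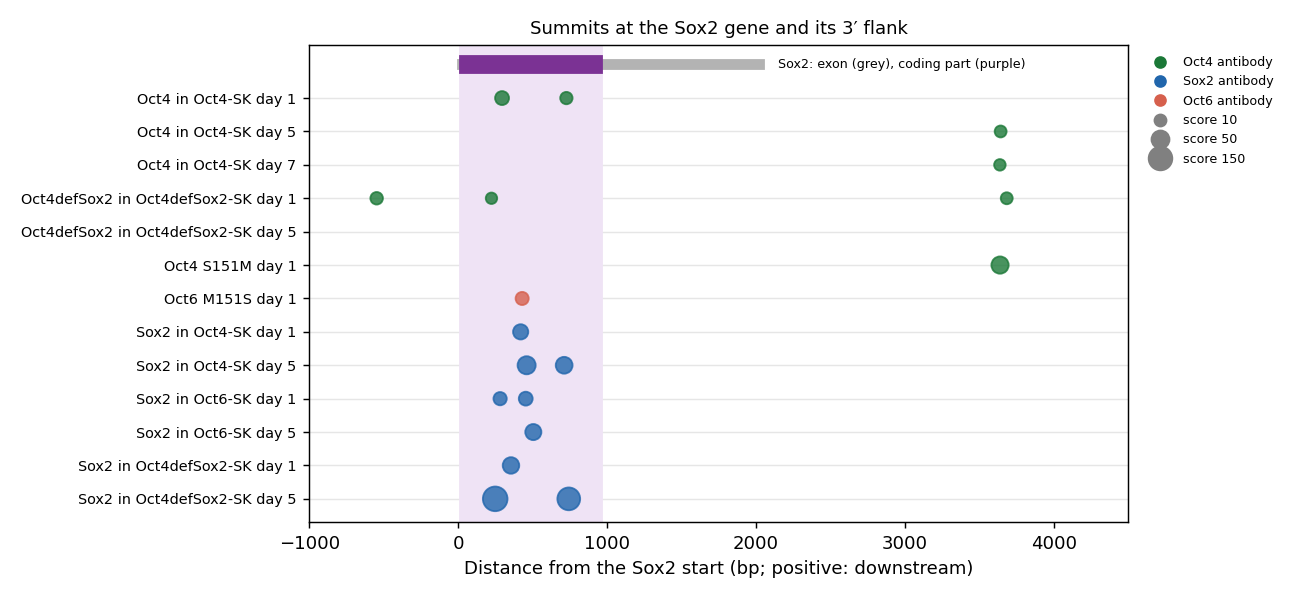
Summits at the Sox2 gene and its 3′ flank. The x axis is the distance in bp, rows are libraries, colour is the antibody, point area grows with the score, and the shaded band is the coding part of the exon. All exon summits fall inside the coding band, and the 4 summits of the 3′ element lie between 3638 and 3684 bp.

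The element bound in most libraries outside the exon lay at −91.1 kb. It had summits in 9 of 13 libraries, including all 6 of Sox2, and these spread over 203 bp. The centre lies in an intron of the longest Sox2ot model, 1056 bp before the RefSeq start of Sox2ot, a noncoding RNA gene. Across the genome, 0.143% of merged sites had 9 or more libraries, and 0.0844% had all 6 Sox2 libraries.

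At −91.1 kb Sox2 scored 6.22 at day 1 and 29.4 at day 5 in Oct4-SK cells, which placed it in the top 61.9% and the top 2.54% of those libraries. In Oct6-SK cells the scores were 7.8 and 16.6, in the top 36.3% and 8.87%. In Oct4defSox2-SK cells they were 7.23 and 17.4, in the top 68.6% and 16.2%. By top percent, Sox2 at this element ranked higher at day 5 than at day 1 in each of the 3 cocktails. Top percent also depends on the length of the list. In Oct4defSox2-SK cells the rank was 3973 of 5794 at day 1 and 3499 of 21563 at day 5. How many other sites changed in the same direction is not given here. With 1 library at each point, the comparison is between libraries and was not tested.

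The Oct4 antibody gave 3 summits at −91.1 kb. Oct4defSox2 at day 1 scored 28.6 (rank 3810 of 31070). Oct4 at day 7 scored 7.69 (rank 2346 of 3638), and Oct4 S151M scored 11.8 (rank 73545 of 101170), with a fold enrichment of 5.2. Oct4 itself had no summit there at days 1 and 5. The window held 1 Sox core match, in the orientation of CATTGT on the plus strand, and no POU motif at the mismatches allowed. Its nearest stretch to SoxOct differed from the consensus at 5 positions.

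A neighbouring element at −90.1 kb had Sox2 summits only. It scored 12.8 in Oct6-SK at day 5 (rank 506 of 2673) and 9.19 in Oct4-SK at day 1 (rank 4950 of 15222). Its centre lies 72 bp before an annotated Sox2ot transcript start. The third Sox2 element, at −12.4 kb, had summits in 3 of the 6 Sox2 libraries. In Oct4defSox2-SK cells Sox2 scored 15.7 at day 1 (rank 710 of 5794) and 17.4 at day 5 (rank 3499 of 21563). By top percent it thus ranked higher at day 1 (12.3%) than at day 5 (16.2%). In Oct4-SK cells at day 5 it scored 7.49 (rank 3651 of 5832). Neither Oct6-SK library was listed there. Its centre lies 162 bp before a further Sox2ot transcript start, and its window held 2 Sox core matches. Both of these elements lay just before an annotated Sox2ot start, and neither had an Oct4-antibody summit.

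The promoter element at −0.5 kb had a single summit, Oct4defSox2 at day 1, with a score of 12.04 (rank 14058 of 31070). It lay 137 bp before the RefSeq start of Sox2, in a window with 75.6% G and C. The window held a Sox core match and no POU motif at the mismatches allowed. No wild-type Oct4 or Sox2 summit was listed within 1 kb upstream of the gene.

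The distal enhancer region held a single summit in these lists. No count over other windows of its length stands beside this number, so it is not read as high or low. In a window of 15 kb that begins 100 kb downstream and takes in the known distal control region, 1 of 13 libraries had a summit. This was Oct4 S151M at +101.4 kb, which scored 24.7 (rank 40993 of 101170) with a fold enrichment of 8.91, and without that library the window held 0. The 201 bases around it held neither a POU motif nor a Sox core, and their nearest stretch to the octamer had 1 mismatch. Just outside, Sox2 in Oct4-SK cells at day 5 scored 10.4 at +115.6 kb (rank 2086 of 5832), 607 bp past the edge, and no other library had a summit there. Within 150 kb, Oct4 at days 1, 5 and 7 had no summit further than 4 kb downstream. A site under the authors' threshold at their read depth is not listed, so a missing summit is not an absence of binding.

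The remaining elements were each seen by Oct4 S151M alone. At −134.5 kb and at +93.8 kb its score was 11.9 and its fold enrichment 5.76, rank 70665 of 101170 in both. Both windows held a MORE match with 1 mismatch, ATGCATTTTCAT and ATGCATATGCAC, and repeats made up 56.2% and 96.5% of their bases. In all, 5 of the 9 elements outside the exon had 1 library only, and 3 of these were Oct4 S151M. Over the genome, 227116 summits merged into 172918 sites, so most sites held a single summit, and Oct4 S151M was at 58.5% of sites. The genome shares of sites with 1 library or with both antibodies are not given here. Of the 9 elements, 6 had an Oct4-antibody summit, 4 a Sox2 summit and 1, the element at −91.1 kb, both. MORE lay at 2 of the 9 and at 10.7% of all sites, MORE+1 at 0 and 4.01%, the octamer at 0 and 5.14%, and a Sox core at 6 of the 9 and at 38.5% of all sites. Any POU motif lay at 3 of the 9 and at 20.1% of all sites. Without Oct4 S151M it lay at 1 of the 6 elements then left, while the 20.1% still counts the sites of that library. With so few elements these shares describe the locus and carry no test.

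**Figure D3:**
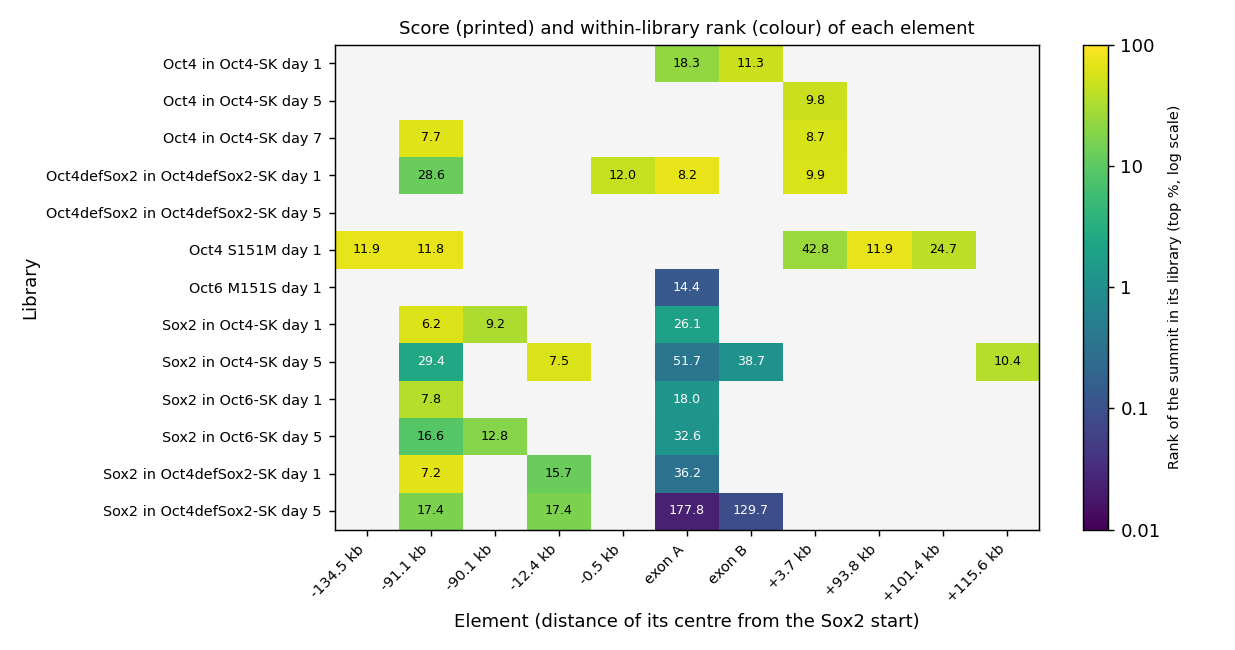
Score of each element in each library (printed number) and its rank within the library (colour, top percent on a log scale). Columns are the 11 elements in order along the chromosome, and empty cells have no summit. The strongest rank is that of Sox2 in the exon in Oct4defSox2-SK cells at day 5, the top 0.0232%.

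The exon had summits in as many libraries as the element at −91.1 kb, and it was described apart from the rest because the retroviral Sox2 cDNA carries the same bases. The exon spans 2057 bp (chr3:34650405-34652461). All 13 exon summits fell between 224 and 743 bp after the start, inside the coding sequence of 957 bp (chr3:34650416-34651372), which makes up 46.5% of the exon, and none fell in its noncoding parts. They came from 9 libraries, 1 peak in each, of which 4 libraries had 2 summits. Reads from the delivered cDNA and from the gene cannot be told apart there.

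All 6 Sox2 libraries had their highest member in the exon. In Oct4-SK cells the highest exon summit scored 26.1 at day 1 (rank 295 of 15222) and 51.7 at day 5 (rank 22 of 5832). In Oct6-SK cells it scored 17.98 (rank 41 of 3242) and 32.6 (rank 31 of 2673). In Oct4defSox2-SK cells it scored 36.2 (rank 18 of 5794) and 178 (rank 5 of 21563). The exon was thus within the top 1.94% of summits in each of the 6 Sox2 libraries. In each cocktail its score was higher at day 5, but in Oct6-SK cells its rank went only from the top 1.26% to the top 1.16%. In Oct4defSox2-SK cells the list itself was longer at day 5, 21563 against 5794 summits.

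The Oct4 antibody gave exon summits of lower rank. Oct4 at day 1 scored 18.3 (rank 1852 of 8216), with a second summit of 11.3 (rank 3958). Oct4defSox2 at day 1 scored 8.25 (rank 22390 of 31070). Oct6 M151S scored 14.4, rank 30 of 22804, with a fold enrichment of 2.53. The 4 libraries without an exon summit were Oct4 at days 5 and 7, Oct4defSox2 at day 5 and Oct4 S151M, the longest of the lists.

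Both elements of Oct4 at day 1 were the exon ones, so the comparisons that start from that list rest on the coding sequence. They are 2 summits of 1 peak, so the shares below and their intervals count 1 peak as 2 sites. The intervals would cover counting error only if the sites were separate. Neither element was kept at day 5 (0 of 2, Wilson 95% interval 0 to 65.8%), where 25.6% of Oct4 day 1 sites of the genome were kept. Oct4defSox2 at day 1 was at 1 of the 2 (50%, 9.45 to 90.5%), against 60.5% over the genome. Sox2 in Oct4-SK at day 1 was also at 1 of the 2, against 23.6% over the genome. Neither count held under every setting: the first was 0 at a score of at least 10, the second 0 with merging at 50 bp, and both 0 with the 1038 strongest summits of each library. In that last setting no Oct4 summit of day 1 was left in the window. Outside the exon, Oct4 had no element at day 1 and only that at +3.7 kb at day 5, which was without Sox2 of Oct4-SK cells, where 12% of Oct4 day 5 sites of the genome had Sox2 at day 5. At day 5, 4 of the 6 elements with Sox2 had it in 2 or more cocktails, where 12.6% of the Sox2 sites of day 5 were shared in this way over the genome. They were both exon elements, which belong to 1 peak in each library, and those at −91.1 and −12.4 kb. With 1 summit per peak the number was 3.

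Exon summits were then listed in the same way for the other genes of the cocktails, Klf4, Pou5f1 (which encodes Oct4) and Pou3f1 (which encodes Oct6). All lay inside coding sequence, as at Sox2: 6 of 6 for Klf4, 10 of 10 for Pou5f1 and 15 of 15 for Pou3f1. Klf4, delivered to all cells as Sox2 was, had exon summits in 4 libraries. Of these, 1 was a Sox2 library (Oct4defSox2-SK at day 5, score 9.53, rank 9753 of 21563). Pou5f1 had them in 8 libraries, including all 6 of Sox2, and Pou3f1 in 8, also including all 6.

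Exon summits were also listed where the labels name no such cDNA. In Oct6-SK cells, to which no Oct4 cDNA was given by the labels, the Pou5f1 summit of the Sox2 library scored 71.5 at day 1 (rank 1 of 3242) and 33.0 at day 5 (rank 30 of 2673). In Oct4-SK cells, to which no Oct6 cDNA was given, the Pou3f1 summit scored 23.9 at day 1 (rank 394 of 15222) and 17.5 at day 5 (rank 726 of 5832). In the Oct6 M151S library, whose factor is a Pou3f1 product, Pou3f1 scored 344.4 (rank 1 of 22804). The 4 libraries without a Sox2 exon summit had none in the exons of Klf4, Pou5f1 or Pou3f1 either. Where these reads came from was not tested, and the exon summits of Sox2 are therefore given as values and not as binding to the gene.

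**Figure D4:**
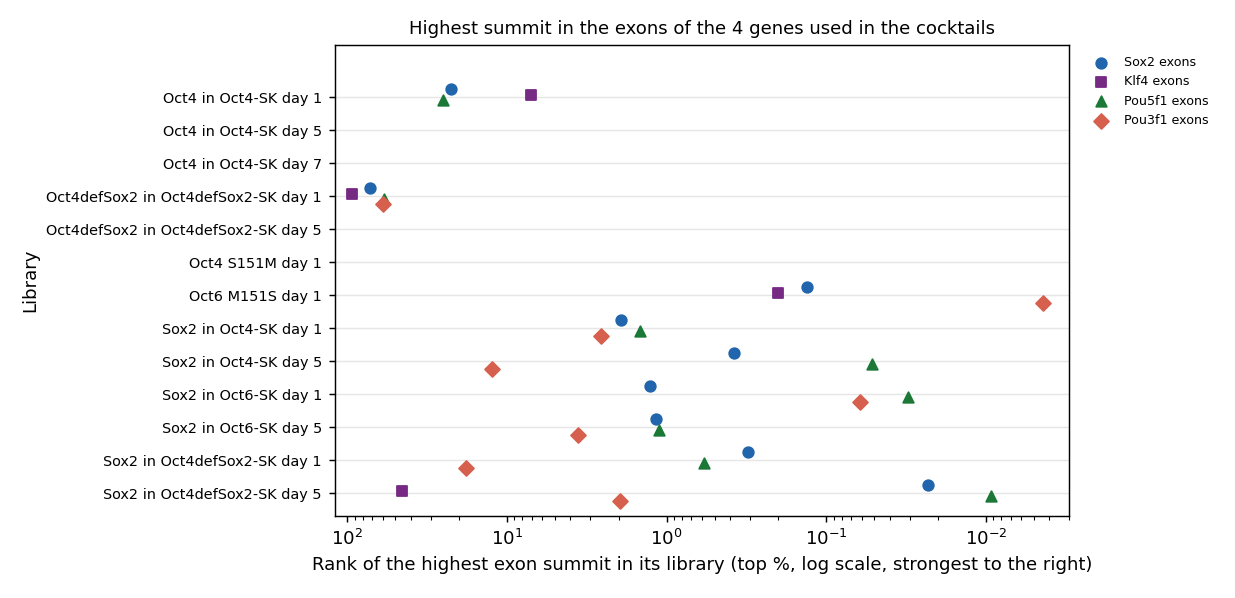
Rank of the highest exon summit of Sox2, Klf4, Pou5f1 and Pou3f1 in each library, as top percent on a log axis with the strongest to the right. Rows without a symbol have no exon summit in any of the 4 genes. Sox2, Pou5f1 and Pou3f1 have a point in every Sox2 library, whichever POU factor was in the cocktail.

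Among 21924 protein-coding genes, an exon summit in 9 or more of the 13 libraries was found for 7 genes (0.0319%), Sox2 among them, and 17632 genes had none in any library. Counting the coding sequence alone, 2 genes reached 9 libraries, Sox2 and the zinc finger gene Zfp626. The genes whose pattern over the 13 libraries was most like that of Sox2 were chosen by the Jaccard index, the libraries shared as a fraction of those in which either gene had an exon summit. It was 0.889 for Pou3f1 and for Pou5f1, 0.778 for Sox17 and Rtkn2 and 0.727 for Rhob. Sox17, a relative of Sox2 that is in no cocktail by the labels, had coding summits in all 6 Sox2 libraries, and it held rank 1 of 21563 in Oct4defSox2-SK cells at day 5. The 13 points share libraries of very different length, so these values describe likeness only.

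**Figure D5:**
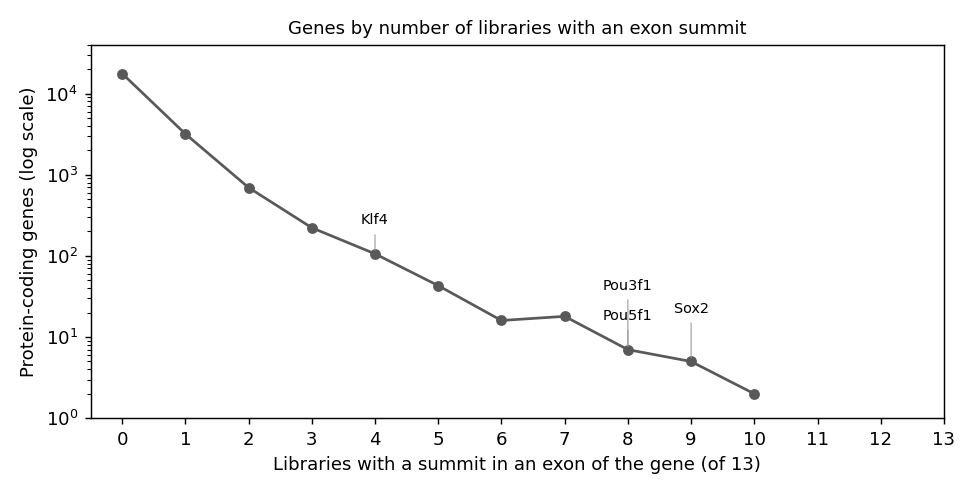
Number of protein-coding genes (log axis) by the number of libraries with a summit in an exon of the gene. Each point is 1 class of genes, and the genes used in the cocktails are marked. The count runs from 17632 genes with 0 libraries to 2 genes with 10, with Sox2 at 9, Pou5f1 and Pou3f1 at 8 and Klf4 at 4.

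Without its exon, the Sox2 locus was close to the median gene by its total number of summits. Its 23 summits within 150 kb compared with a median of 25 over 21951 protein-coding starts, each counted without its own exons. Its 12 Sox2-antibody summits compared with a median of 6, and 14.2% of starts had as many or more. Its 11 Oct4-antibody summits compared with a median of 15, and 70.1% of starts had as many or more. That order rests on the Oct4 S151M library. Without it, the Oct4-antibody count was 6 against a median of 4, and the total was 18 against a median of 14. With exon summits the counts were 36 in all, 21 for Sox2 and 14 for the Oct4 antibody. No other protein-coding gene starts in this stretch, and the nearest such start to any element, that of Dnajc19, lay 434627 bp away.

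A list of 18 genes of the pluripotency network was taken for comparison. Outside their own exons the median was 26.5 summits, with 11 of the 18 above the 23 of Sox2. For the Sox2 antibody the median was 6.5 and 2 of the 18 exceeded the 12 of Sox2, namely Dppa3 with 14 and Fgf4 with 13. Nanog and Pou5f1 also had 12. For the Oct4 antibody the median was 17.5, with 13 of the 18 above the 11 of Sox2, and without Oct4 S151M it was 6.5, with 9 of the 18 above the 6 of Sox2. The locus of Sox2 thus had more Sox2 summits than the median gene of this list, and its lower Oct4-antibody count came largely from Oct4 S151M. At the edges of the region the outermost members were the summits at −134457 and 115607 bp, and the nearest summits left out lay at −154729 bp (Oct4 S151M, score 48.1) and 178248 bp (Oct4 at day 5, score 15.3).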

How the data were processed

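The deposited data were ChIP-seq summit lists of 13 libraries from OG2 MEFs. The authors aligned the reads to mm10 with Bowtie2 2.2.5 and called peaks with MACS2 at a p-value of 0.0001, each library on its own. The deposited Oct6 M151S list also holds summits under that threshold. The deposited score of a summit is a −log10 p-value. For Oct4 S151M and Oct6 M151S the authors also deposited peak tables with fold enrichment (a ratio over the local background) and a −log10 q-value. Read depth is not in the lists, so precision could not be derived from it.

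Summits within 150 kb of the Sox2 start were taken from all lists and merged when within 100 bp of the next. Ranks were set within each library over all of its summits. The Sox2 start, exons and coding sequence came from GENCODE M21, and RefSeq supplied the GRCm38.p6 bases and a second gene start, used only where it is named. Motifs were searched on both strands within 100 bp of the centre of each element and of 172804 sites over the genome. With 1 library per group no test was run, and shares carry Wilson 95% intervals. Elements named were those over the exon or in the distal window, those with 4 or more libraries and the highest of each library. The rest were named after their values were seen. The 5 genes most like Sox2 were chosen by the Jaccard index. The members and gene lists were chosen with earlier results of these data known. In all, 13 alternative settings were tried, of which leaving out Oct4 S151M or Oct6 M151S was added after seeing the data, as was the Sox core. The procedure was tested on simulated data. Python 3.11.15, numpy 2.4.6, pandas 2.3.3, scipy 1.17.1 and matplotlib 3.10.9 were used.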

Additional observations from a re-analysis of the deposited data

How the results depend on the processing

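Each of 8 results was recomputed under up to 13 settings, and 12 of the 69 values moved. With only the 1038 strongest summits of each library, elements outside the exon fell to 3 of 9, and 0 libraries remained in the distal window. The same setting gave 0 elements for Oct4 with Oct4defSox2 at day 1, 0 for Oct4 with Sox2 in Oct4-SK at day 1 and 0 with a POU motif. Merging at 50 bp gave 0 elements for Oct4 with Sox2 at day 1, and a score of at least 10 gave 0 for Oct4 with Oct4defSox2. Elements with a POU motif numbered 0 with 1 fewer mismatch and 1 with a motif window of 50 bp to each side. A distal window of 95 to 125 kb held 2 libraries. Without Oct4 S151M, an alternative chosen after seeing the data, the distal window held 0 libraries and 1 of the 6 elements left had a POU motif. The same setting turned the Oct4-antibody count outside own exons from below the median start (11 against 15) to above it (6 against 4). The other 57 values stayed within 1.5 times the reported one, but some of them could not move. The only Oct6 M151S member scored above 4, so leaving out the lower scores of that list changed nothing at the locus. With the 1038 strongest summits, the Oct4 day 1 members (ranks 1852 and 3958) were lost, so counts that start from that list rested on no element. No paired analysis was possible because each group had 1 library and no result came from a test. Weak summits depend on read depth, which the lists do not give.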
